A study of Arabidopsis with 22 samples.

Results

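The CYCLING DOF FACTOR (CDF) genes of Arabidopsis encode DNA-binding proteins of the Dof zinc finger family. The 4 genes described here, *CDF1* (AT5G62430), *CDF2* (AT5G39660), *CDF3* (AT3G47500) and *CDF5* (AT1G69570), were taken by their locus identifiers from the 25218 transcripts of the expression table, and all 4 were found and passed the filter on low values. CDF proteins accumulate in the morning and repress *CONSTANS* (*CO*), the activator of flowering in long days, and *FLOWERING LOCUS T* (*FT*), which encodes the mobile signal for flowering. Later in the day, the F-box protein FKF1 bound to GIGANTEA (GI) marks CDF proteins for degradation, which releases *CO* and *FT*. CDF1 is the best studied of these repressors, CDF2, CDF3 and CDF5 act redundantly with it, and TOPLESS (TPL) proteins serve as their co-repressors. Transcription of the CDF genes is under control of the circadian clock, in which *LUX ARRHYTHMO* (*LUX*) encodes an evening repressor.

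RNA of 25-day-old plants grown in 12 h of light and 12 h of darkness was sequenced at zeitgeber time 1 (ZT1), 1 h after lights on, and at ZT13, 1 h after lights off. Plants were Col-0 (wild type), *lux-1*, which carries a nonsense mutation early in *LUX*, *acd6-1*, a small plant whose defense is always active, or the cross *acd6-1lux-1*. All lines were in the Col-0 background, and the labels name no infection or treatment. The 22 libraries fell into 8 groups of genotype and time. There were 2 biological replicates for each of the ZT13 groups with *acd6-1* and 3 for every other group. The labels write *acd6-1* as acd6-1-0, and each mutation is represented by a single allele. The tissue is labelled as whole plants, yet the summed level of 6 root markers was at most 0.851 RPKM in any library, with 1 to 3 of the 6 at 0 in all libraries of a group, against 19547 RPKM or more for 5 rosette leaf markers. Root tissue was therefore close to absent by these markers.

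Mapped reads ranged from 10306552 to 16224975 per library (median 13328471). One library, *acd6-1lux-1* ZT1 replicate 3, had 60.51% of its reads mapped against 79.84% to 81.59% in the others, and a chloroplast share of 0.661% of mapped reads against 0.013% to 0.024%. Leaving it out changed no call of a CDF gene. *LUX* transcript was higher with *lux-1* (76.0 against 6.41 RPKM in Col-0 at ZT13), which does not test a label given by a nonsense mutation. *ACD6* transcript in *acd6-1* was above Col-0 at ZT1 (398 against 164 RPKM, adjusted p = 1.8e-05) and below it at ZT13 (261 against 370 RPKM, adjusted p = 0.075, a call lost without each of 3 libraries and under median-of-ratios scaling, a replicate block, edgeR, voom and DESeq2, at adjusted p from 0.12 to 0.38), and the level of a gain-of-function allele does not test its label either. The comparisons below share libraries, since each group serves in several of them.

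Levels are given in RPKM, read numbers divided by transcript length and by the mapped reads of the library, which compares genes per length. The recovered coding lengths were 897 bases for *CDF1*, 1374 for *CDF2*, 1347 for *CDF3* and 1200 for *CDF5*. The values rested on 56 to 691 reads per library for *CDF1*, 18 to 700 for *CDF2*, 16 to 1697 for *CDF3* and 45 to 441 for *CDF5*. Differences were tested with limma on log2(RPKM + 1) in 1 model of all libraries, p values were adjusted over the 21666 genes tested, and a gene passed at an adjusted p under 0.1. A log2 difference on this scale understates the change of a weakly expressed gene, so ratios of mean RPKM are given beside it.

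*CDF1*, the founding member of the group, was a morning gene in every genotype. At ZT1 the Col-0 libraries held 57.1, 56.0 and 56.8 RPKM, those of *lux-1* 43.9, 43.3 and 43.3 RPKM, those of *acd6-1* 43.2, 37.6 and 35.3 RPKM and those of *acd6-1lux-1* 27.5, 33.5 and 33.0 RPKM. At ZT13 the Col-0 libraries held 5.37, 6.26 and 6.05 RPKM, those of *lux-1* 9.35, 11.3 and 10.8 RPKM, those of *acd6-1* 5.90 and 4.89 RPKM and those of *acd6-1lux-1* 10.6 and 14.1 RPKM. At ZT1 the 4 genotypes were ordered from Col-0 down to *acd6-1lux-1* with no overlap between neighbors. At ZT13 the order was by *LUX* genotype, since *acd6-1lux-1* overlapped *lux-1*, *acd6-1* overlapped Col-0, and the first pair lay above the second.

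*CDF2* had a different ranking, with its highest level in *acd6-1* in the morning. At ZT1 the Col-0 libraries held 10.8, 11.4 and 11.01 RPKM, those of *lux-1* 8.85, 6.74 and 6.87 RPKM, those of *acd6-1* 31.4, 27.3 and 32.1 RPKM and those of *acd6-1lux-1* 19.9, 17.9 and 17.7 RPKM. At ZT13 the Col-0 libraries held 1.38, 1.17 and 1.06 RPKM, those of *lux-1* 7.45, 12.95 and 8.47 RPKM, those of *acd6-1* 4.29 and 2.02 RPKM and those of *acd6-1lux-1* 13.7 and 14.8 RPKM. The Col-0 libraries at ZT13 were below those of every other group. The *lux-1* libraries at ZT13 overlapped both *lux-1* and Col-0 at ZT1.

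*CDF3* had the highest mean of the 4 genes at ZT1 in each genotype, overlapping *CDF1* in *acd6-1*, and spanned the widest range. At ZT1 the Col-0 libraries held 68.8, 62.2 and 66.9 RPKM, those of *lux-1* 86.0, 96.4 and 98.7 RPKM, those of *acd6-1* 55.5, 35.0 and 37.2 RPKM and those of *acd6-1lux-1* 73.9, 70.6 and 76.2 RPKM. At ZT13 the Col-0 libraries held 1.66, 1.77 and 1.504 RPKM, those of *lux-1* 6.17, 7.05 and 5.67 RPKM, those of *acd6-1* 0.836 and 0.869 RPKM and those of *acd6-1lux-1* 3.44 and 3.87 RPKM. No neighbors in the order of the 8 groups overlapped, and at each time the order was *lux-1*, *acd6-1lux-1*, Col-0, *acd6-1*.

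*CDF5*, which is also known to promote elongation of the hypocotyl, had the smallest range. At ZT1 the Col-0 libraries held 7.71, 6.37 and 6.21 RPKM, those of *lux-1* 10.8, 8.42 and 8.68 RPKM, those of *acd6-1* 20.6, 16.8 and 23.6 RPKM and those of *acd6-1lux-1* 26.0, 14.9 and 25.9 RPKM. At ZT13 the Col-0 libraries held 4.73, 4.39 and 3.04 RPKM, those of *lux-1* 9.87, 12.8 and 7.87 RPKM, those of *acd6-1* 7.12 and 5.55 RPKM and those of *acd6-1lux-1* 9.20 and 9.06 RPKM. Both groups with *acd6-1* at ZT1 overlapped each other and lay above the rest, and Col-0 at ZT13 lay below the rest. In the RefSeq annotation (TAIR10.1) a long noncoding RNA gene, AT1G69572, overlaps *CDF5*. The counting is not stated to use strand, so reads of the overlapping stretch cannot be told apart between them.

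**Figure D1:**
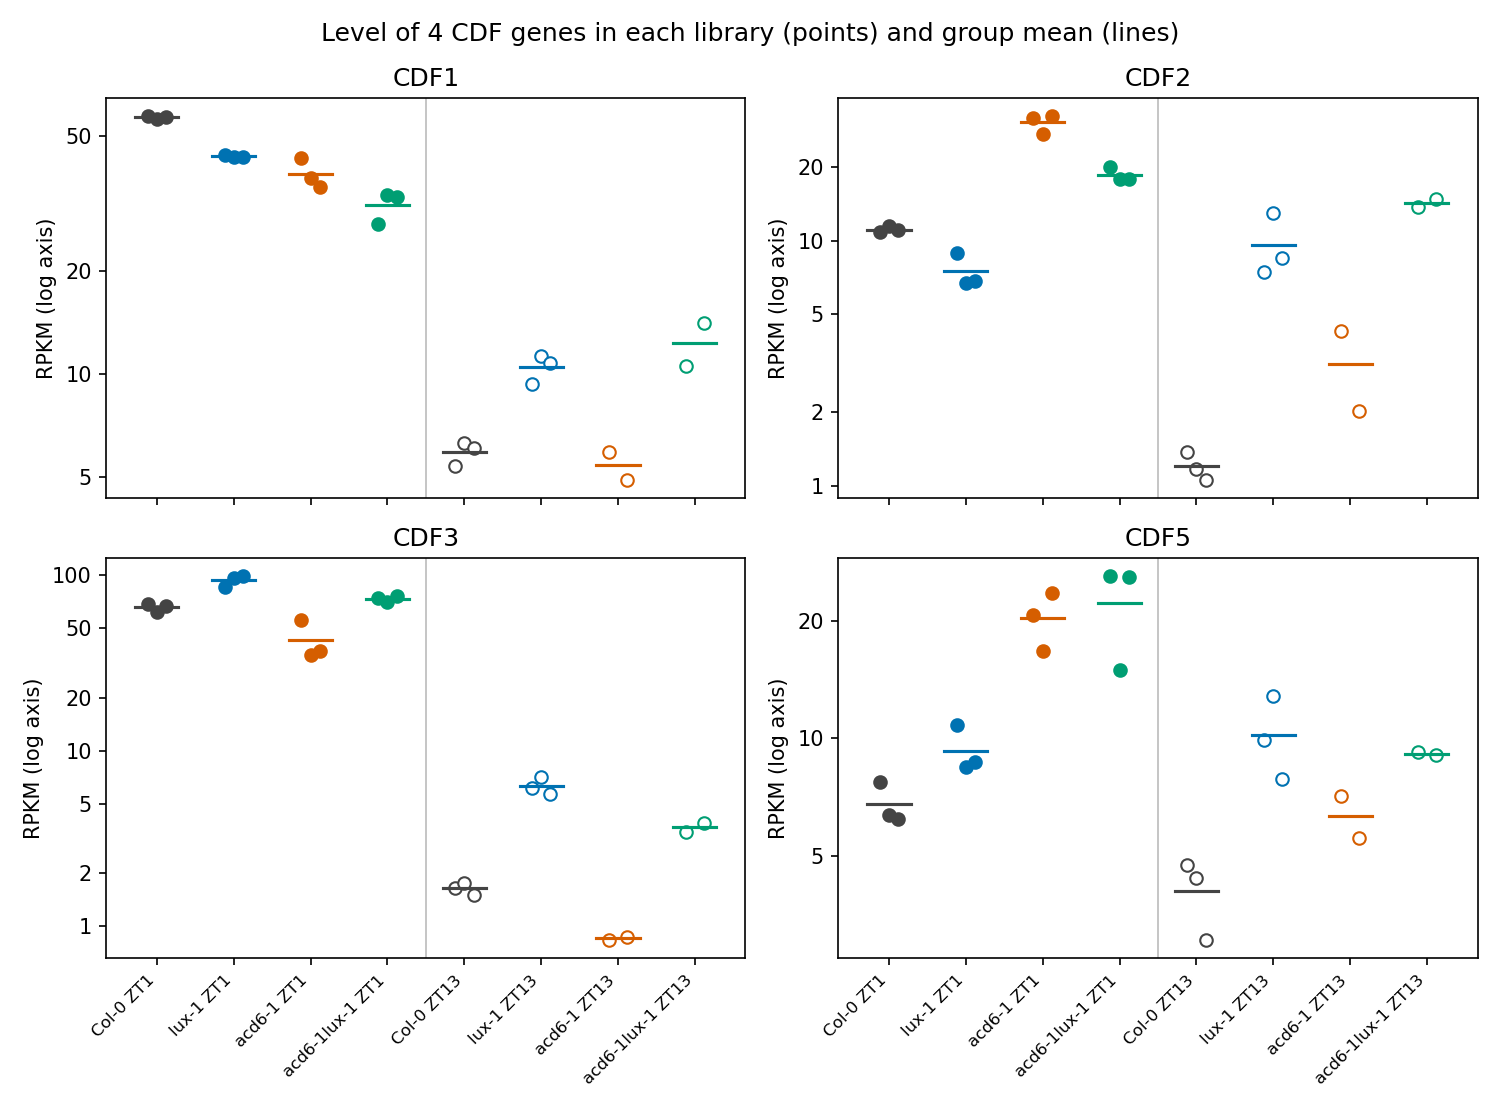
Level of each CDF gene in RPKM on a log axis, with 1 point per library, filled at ZT1 and open at ZT13, and a line at the mean of each group. At ZT13 the *lux-1* and *acd6-1lux-1* points lie above those of Col-0 and *acd6-1* for all 4 genes, while at ZT1 *CDF2* and *CDF5* are highest in the groups with *acd6-1*.

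The comparison of ZT13 with ZT1 asks how far each gene fell from morning to early night. In Col-0 all 4 genes fell, against 14.4% of all genes tested that were lower at ZT13 (25.9% after median-of-ratios scaling, which lowered the median log2 change of all genes from 0.24 to 0.02). *CDF3* had the largest difference of the 4, with a mean 40.1 times as high at ZT1 as at ZT13 (log2 difference -4.66, SE 0.13, adjusted p = 5.8e-15). *CDF1* was 9.61 times as high at ZT1 (log2 difference -3.07, SE 0.11, adjusted p = 2.1e-13). *CDF2* was 9.20 times as high (log2 difference -2.46, SE 0.18, adjusted p = 3.7e-09). *CDF5* was 1.67 times as high (log2 difference -0.63, SE 0.20, adjusted p = 0.014), and the count-based models on recovered reads put this difference between -1.09 and -1.03.

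In *lux-1* 2 of the 4 genes fell, against 16.4% of all genes lower at ZT13 (23.3% after median-of-ratios scaling). *CDF3* was 14.9 times as high at ZT1 as at ZT13 (log2 difference -3.70, SE 0.13, adjusted p = 2.8e-13), and *CDF1* was 4.16 times as high (log2 difference -1.96, SE 0.11, adjusted p = 1e-10). *CDF2* did not pass, with a mean at ZT1 0.778 times that at ZT13 (log2 difference 0.30, SE 0.18, adjusted p = 0.19). Without *lux-1* ZT13 replicate 1, *CDF2* passed as higher at ZT13 (log2 difference 0.45, adjusted p = 0.071). *CDF5* had overlapping libraries at the 2 times (log2 difference 0.10, SE 0.20, adjusted p = 0.71), and its sign turned under 5 alternatives and without *lux-1* ZT13 replicate 2.

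In *acd6-1* all 4 genes fell again, against 15.8% of all genes (22.7% after median-of-ratios scaling). The ratio of ZT1 to ZT13 was 49.96 for *CDF3*, 9.58 for *CDF2*, 7.17 for *CDF1* and 3.21 for *CDF5*, with log2 differences of -4.53, -2.96, -2.63 and -1.54. In *acd6-1lux-1* *CDF3*, *CDF1* and *CDF5* fell, against 19.9% of all genes, with ratios of 20.1, 2.54 and 2.44 and log2 differences of -4.00, -1.29 and -1.16. *CDF2* there had a ratio of 1.30 with no overlap of libraries (log2 difference -0.35, SE 0.20, adjusted p = 0.18). Under 5 of the alternatives this value passed, with log2 differences from -0.44 to -0.35.

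**Figure D2:**
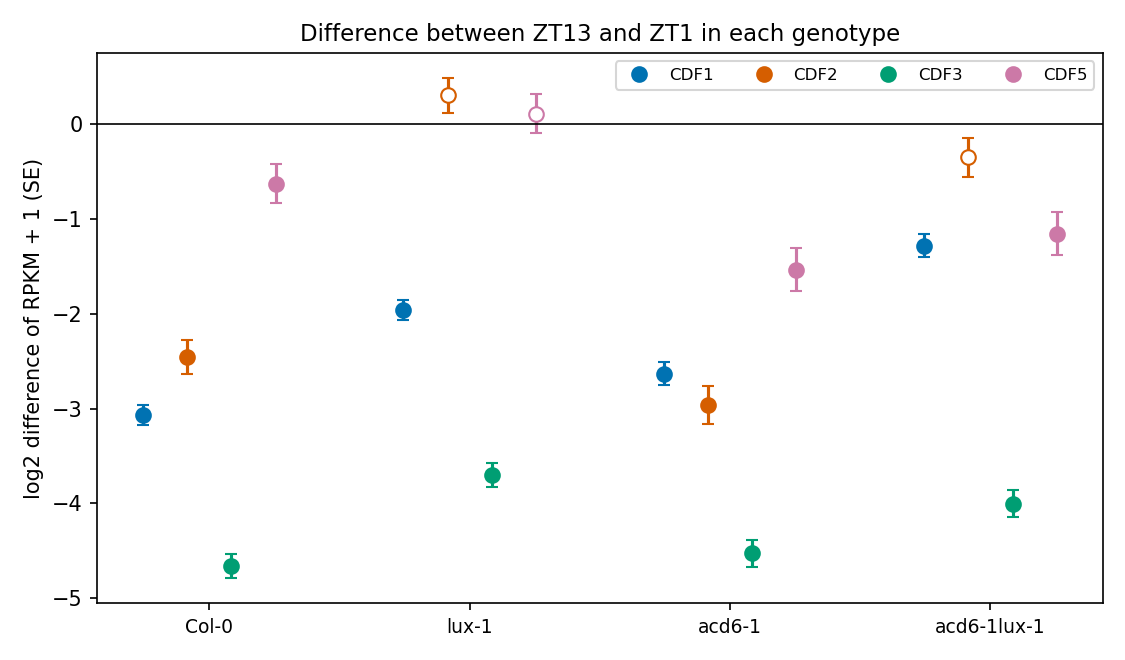
Difference between ZT13 and ZT1 in log2(RPKM + 1) for each CDF gene in the 4 genotypes, with bars for the standard error and filled points for an adjusted p under 0.1. *CDF2* lies at -2.46 in Col-0 and -2.96 in *acd6-1* but at 0.30 in *lux-1* and -0.35 in *acd6-1lux-1*.

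The comparison of *lux-1* with Col-0 at ZT13 asks what loss of *LUX* did in early night, and all 4 CDF genes were higher there. Only 2.08% of all genes tested rose past the test in this comparison and 1.85% fell. No libraries of *lux-1* and Col-0 overlapped for any of the 4 genes, and overlap was not counted over all genes. *CDF2* rose the most, with a mean 7.99 times that of Col-0 (9.62 ± 2.93 against 1.20 ± 0.160 RPKM, SD, n = 3 each, log2 difference 2.24, SE 0.18, adjusted p = 4.7e-07). *CDF3* was 3.83 times as high (6.30 ± 0.701 against 1.65 ± 0.134 RPKM, SD, n = 3 each, log2 difference 1.46, SE 0.13, adjusted p = 1.1e-06). *CDF5* was 2.51 times as high (10.2 ± 2.49 against 4.05 ± 0.893 RPKM, SD, n = 3 each, log2 difference 1.14, SE 0.20, adjusted p = 0.0038). *CDF1* was 1.78 times as high (10.5 ± 0.994 against 5.89 ± 0.465 RPKM, SD, n = 3 each, log2 difference 0.73, SE 0.11, adjusted p = 0.00055). All 4 calls held under each alternative run, including each library left out.

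The same question in the *acd6-1* background gave 3 of the 4 genes higher in *acd6-1lux-1* than in *acd6-1* at ZT13, against 1.15% of all genes that rose and 0.346% that fell. *CDF2* was 4.51 times as high (log2 difference 1.93, SE 0.22, adjusted p = 6.5e-05), *CDF3* 4.29 times (log2 difference 1.33, SE 0.15, adjusted p = 7.2e-05) and *CDF1* 2.28 times (log2 difference 1.05, SE 0.13, adjusted p = 0.00017). *CDF5* was 1.44 times as high with no overlap of libraries, but did not pass (log2 difference 0.47, SE 0.25, adjusted p = 0.56). With the model restricted to the 4 libraries compared, the 3 calls were lost, at an adjusted p of 0.11 for *CDF3*, 0.14 for *CDF2* and 0.19 for *CDF1*. The count-based models put the *CDF3* difference between 2.04 and 2.06. The difference with *lux-1* was not shown to depend on the *acd6-1* background for any of the 4 genes at ZT13. On the scale of log2(RPKM + 1) the effects differed by -0.67 to 0.32. For *CDF2* this value lay between -0.90 and -0.31 under the alternatives other than leaving out a library. In limma, edgeR, voom and DESeq2 0 of 4 passed, and 0 of 4 had an unadjusted p under 0.05 in limma, against 0.586% of all genes past the test (0.342% higher and 0.245% lower, or 0.129% and 0.217% after median-of-ratios scaling).

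Markers of flowers moved with *lux-1* as well. Against Col-0, 6 of 7 rose past the test at ZT13 and 2 of 7 at ZT1, beside 2.08% and 13.2% of all genes. In the *acd6-1* background at ZT13, 2 of 7 rose, beside 1.15% of all genes. The summed level of 7 flower markers was 20.9 to 52.6 RPKM in *lux-1* at ZT13 against 2.25 to 6.34 RPKM in Col-0, and 27.5 to 41.1 RPKM in *acd6-1lux-1* against 6.09 to 6.50 RPKM in *acd6-1*, and none of the 7 was at 0 in all libraries of a group. At ZT1 it was 12.7 to 33.4 RPKM in *lux-1* against 3.69 to 7.73 RPKM in Col-0, while in the *acd6-1* background the sums overlapped (5.30 to 25.2 RPKM with *lux-1* and 8.83 to 13.3 RPKM without). The summed level of 5 markers of phloem and bundles, where *CO* and *FT* are transcribed, was 497 to 702 RPKM in *lux-1* at ZT13, overlapping 570 to 673 RPKM in Col-0. At ZT1 it was 376 to 430 RPKM in *lux-1* against 313 to 341 RPKM in Col-0, without overlap. In the *acd6-1* background at ZT1 it was 365 to 499 RPKM with *lux-1* and 326 to 333 RPKM without. At ZT1, 1 of these 5 rose in *lux-1* and 2 in *acd6-1lux-1*, beside 13.2% and 22.8% of all genes. The part of flower, phloem and bundle tissue in the CDF results, and in those of *GI*, *CO* and *FT* given further on, was not tested. In bulk samples such as these, fewer cells of a type and less RNA per cell cannot be told apart.

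At ZT1 the CDF genes did not move as a group with *lux-1*. Of all genes, 13.2% rose and 4.61% fell in *lux-1* against Col-0 (6.78% and 7.6% after median-of-ratios scaling), and of the 4 genes 1 rose and 2 fell. *CDF3* rose 1.42 times (93.7 ± 6.78 against 66.0 ± 3.40 RPKM, SD, n = 3 each, log2 difference 0.50, SE 0.13, adjusted p = 0.016). *CDF1* fell to 0.768 times its Col-0 level (log2 difference -0.37, SE 0.11, adjusted p = 0.032), and *CDF2* to 0.676 times (log2 difference -0.52, SE 0.18, adjusted p = 0.073). The *CDF2* call was lost without any 1 of 5 of the 6 libraries, all but *lux-1* ZT1 replicate 1, with log2 differences from -0.53 to -0.46 and adjusted p from 0.13 to 0.19. *CDF5* was 1.37 times as high without overlap of libraries, and did not pass (log2 difference 0.41, SE 0.20, adjusted p = 0.22), except with only the groups compared (adjusted p = 0.087).

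In the *acd6-1* background at ZT1 the directions were the same for those 3 genes. *CDF3* was 1.73 times as high in *acd6-1lux-1* as in *acd6-1* (log2 difference 0.80, SE 0.13, adjusted p = 0.00021), against 22.8% of all genes that rose. *CDF2* fell to 0.611 times (log2 difference -0.68, SE 0.18, adjusted p = 0.011) and *CDF1* to 0.810 times (log2 difference -0.30, SE 0.11, adjusted p = 0.053), against 10.9% that fell. After median-of-ratios scaling 12.8% of all genes rose and 17.4% fell. The *CDF1* call was lost without *acd6-1* ZT1 replicate 1 (adjusted p = 0.2) or *acd6-1lux-1* ZT1 replicate 1 (adjusted p = 0.21), and with only the groups compared in the model (adjusted p = 0.14). *CDF5* was 1.09 times as high with overlapping libraries (log2 difference 0.10, SE 0.20, adjusted p = 0.77), and its sign turned under 2 alternatives and without each of 3 libraries. Between the backgrounds at ZT1 the effects of *lux-1* differed by -0.31 to 0.31 on the log2 scale. In limma, edgeR, voom and DESeq2 0 of 4 passed, and 0 of 4 had an unadjusted p under 0.05 in limma, against 16.0% of all genes past the test. Without *acd6-1* ZT1 replicate 1, which had 55.5 RPKM of *CDF3*, the difference for *CDF3* passed (log2 difference 0.51, adjusted p = 0.024).

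**Figure D3:**
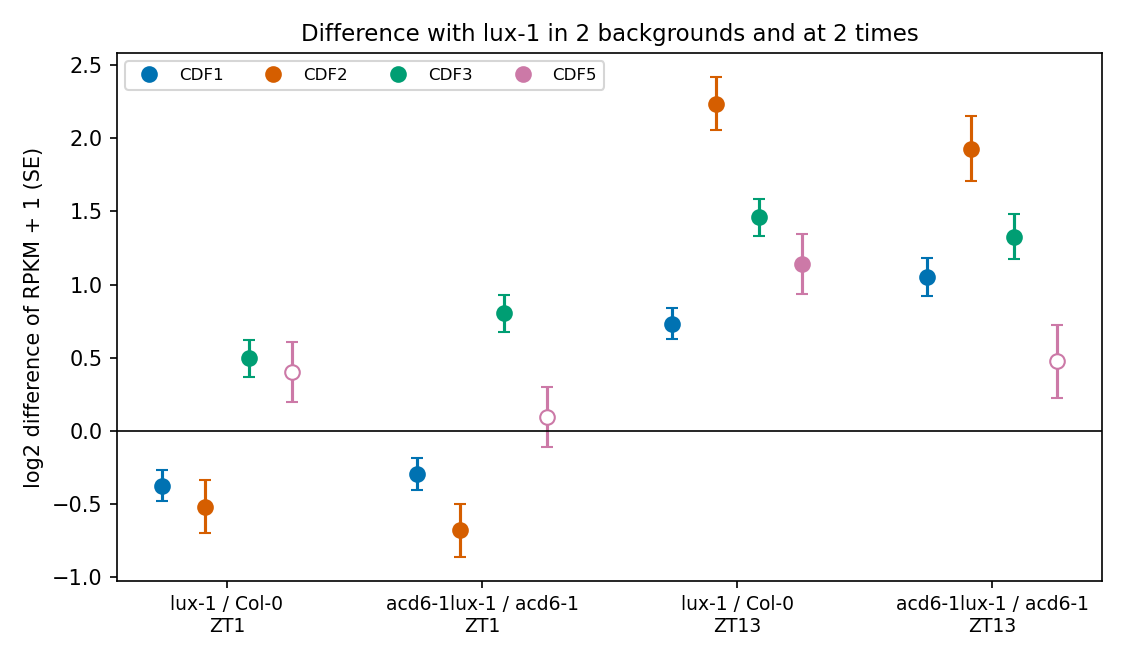
Difference with *lux-1* in log2(RPKM + 1) for each CDF gene in the Col-0 and *acd6-1* backgrounds at ZT1 and ZT13, with bars for the standard error and filled points for an adjusted p under 0.1. At ZT13 all 8 points are above 0, while at ZT1 *CDF1* and *CDF2* are below 0 and *CDF3* is above 0 in both backgrounds.

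The change in the *lux-1* difference between the 2 times was tested directly. In the Col-0 background it was larger at ZT13 for 3 of the 4 genes, against 3.75% of all genes (4.59% after median-of-ratios scaling). The difference between the effects was 2.75 for *CDF2* (SE 0.26, adjusted p = 1.8e-06), 1.11 for *CDF1* (SE 0.15, adjusted p = 0.00016) and 0.96 for *CDF3* (SE 0.18, adjusted p = 0.0026), all on the log2 scale, and 0.73 for *CDF5* (SE 0.29, adjusted p = 0.13). The count-based models put the *CDF3* value between 1.55 and 1.57. *CDF5* passed with only the groups compared, with edgeR, with DESeq2 and without *lux-1* ZT13 replicate 3, at log2 values from 0.73 to 1.03. In the *acd6-1* background *CDF2* (2.61, SE 0.29, adjusted p = 5.1e-05) and *CDF1* (1.35, SE 0.17, adjusted p = 0.00024) passed, against 3.12% of all genes (3.88% after median-of-ratios scaling). *CDF3* had 0.52 (SE 0.20, adjusted p = 0.17) and passed with a pseudocount of 0.1 or 0.5, with edgeR, with DESeq2 and without *acd6-1* ZT1 replicate 2, at log2 values from 0.65 to 1.41.

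In *acd6-1*, the plants with constitutive defense, 2 CDF genes rose and 2 fell in the morning. Against Col-0 at ZT1, *CDF5* was 3.01 times as high (20.3 ± 3.43 against 6.76 ± 0.827 RPKM, SD, n = 3 each, log2 difference 1.45, SE 0.20, adjusted p = 7.9e-06) and *CDF2* 2.73 times (30.2 ± 2.61 against 11.1 ± 0.304 RPKM, SD, n = 3 each, log2 difference 1.37, SE 0.18, adjusted p = 4e-06). *CDF1* fell to 0.683 times the Col-0 level (log2 difference -0.54, SE 0.11, adjusted p = 0.00028) and *CDF3* to 0.645 times (log2 difference -0.65, SE 0.13, adjusted p = 0.00023). The libraries of the 2 genotypes did not overlap for any of the 4 genes, and the share of all genes without overlap was not counted. This comparison moved most of the transcriptome, with 37.2% of all genes higher and 31.0% lower (29.5% and 42% after quantile normalization), shares near the 2 of 4 CDF genes in each direction. The summed level of the rosette leaf markers was 25312 to 29104 RPKM in *acd6-1* against 57459 to 62071 RPKM in Col-0 at ZT1. At ZT13 it was 19547 to 23471 RPKM against 36885 to 41667 RPKM, and all 5 markers fell at both times. Of the 5 markers of phloem and bundles, 0 passed at ZT1 and 4 at ZT13, all lower (median log2 difference -0.48), against 26.5% of all genes lower at ZT13. The part of leaf, phloem and bundle composition in the CDF results was not tested.

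With *lux-1* in both arms the same 2 genes were up and the same 2 down at ZT1. In *acd6-1lux-1* against *lux-1*, *CDF2* was 2.47 times and *CDF5* 2.40 times as high (log2 differences 1.21 and 1.14, adjusted p = 3.6e-05 and 0.0002), against 32.2% of all genes higher. *CDF1* fell to 0.720 times (log2 difference -0.47, adjusted p = 0.0019) and *CDF3* to 0.785 times (log2 difference -0.34, adjusted p = 0.036), against 18.1% of all genes lower. After median-of-ratios scaling 26.8% were higher and 26.5% lower. Without *lux-1* ZT1 replicate 3 the *CDF3* call was lost (adjusted p = 0.11).

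At ZT13 the differences with *acd6-1* were smaller in number. Against Col-0, *CDF2* was 2.62 times as high (log2 difference 0.86, SE 0.20, adjusted p = 0.0023), *CDF5* 1.56 times (log2 difference 0.55, SE 0.23, adjusted p = 0.064) and *CDF3* fell to 0.518 times (log2 difference -0.51, SE 0.14, adjusted p = 0.0069), against 22.3% of all genes higher and 26.5% lower. *CDF1* overlapped Col-0 (log2 difference -0.11, SE 0.12, adjusted p = 0.5). The 2 *acd6-1* libraries differed in *CDF2*, and without replicate 1 its log2 difference was 0.46 (adjusted p = 0.098), while the count-based models gave 1.39 to 1.46. The *CDF5* call was lost without *acd6-1* ZT13 replicate 1 (adjusted p = 0.32) or Col-0 ZT13 replicate 3 (adjusted p = 0.23), and in voom (adjusted p = 0.11). On 16 and 17 reads in the *acd6-1* libraries, the *CDF3* difference was between -0.90 and -0.87 in the count-based models and did not pass in voom (adjusted p = 0.16).

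Between *acd6-1lux-1* and *lux-1* at ZT13, *CDF3* fell to 0.580 times (log2 difference -0.65, SE 0.14, adjusted p = 0.0018), against 18.1% of all genes lower, and *CDF2* was 1.48 times as high (log2 difference 0.55, SE 0.20, adjusted p = 0.046), against 19.9% higher. The *CDF2* call was lost without any 1 of 4 of the 5 libraries, all but *lux-1* ZT13 replicate 2, with adjusted p from 0.12 to 0.21. *CDF1* and *CDF5* had overlapping libraries (log2 differences 0.21 and -0.12, adjusted p = 0.21 and 0.74). Without *acd6-1lux-1* ZT13 replicate 1, *CDF1* passed as higher (log2 difference 0.40, adjusted p = 0.044).

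The *acd6-1* difference changed between the 2 times for 2 of the 4 genes in plants with wild-type *LUX*. For *CDF5* it was smaller at ZT13 by 0.91 on the log2 scale (difference -0.91, SE 0.31, adjusted p = 0.038), against 24.3% of all genes that moved down in this test. For *CDF1* it was 0.43 higher at ZT13 (SE 0.16, adjusted p = 0.057), against 8.55% that moved up. After median-of-ratios scaling these shares were 17.7% and 14.8%. Both calls depended on single libraries. That of *CDF5* was lost without *acd6-1* ZT13 replicate 2 (adjusted p = 0.14). It was also lost after quantile normalization, in edgeR and in voom (adjusted p = 0.12, 0.15 and 0.26). That of *CDF1* was lost without *acd6-1* ZT1 replicate 3, Col-0 ZT13 replicate 1 or *acd6-1* ZT13 replicate 1 (adjusted p from 0.13 to 0.25). *CDF2* did not pass (-0.51, adjusted p = 0.19), and its value was -0.91 without *acd6-1* ZT13 replicate 1, which left 1 library in that group. *CDF3* (0.14, adjusted p = 0.65) passed without *acd6-1* ZT1 replicate 1 (0.34, adjusted p = 0.076). The signs of both turned in edgeR, voom and DESeq2. The values there were 0.16, 0.10 and 0.075 for *CDF2* and -0.10, -0.060 and -0.19 for *CDF3*.

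**Figure D4:**
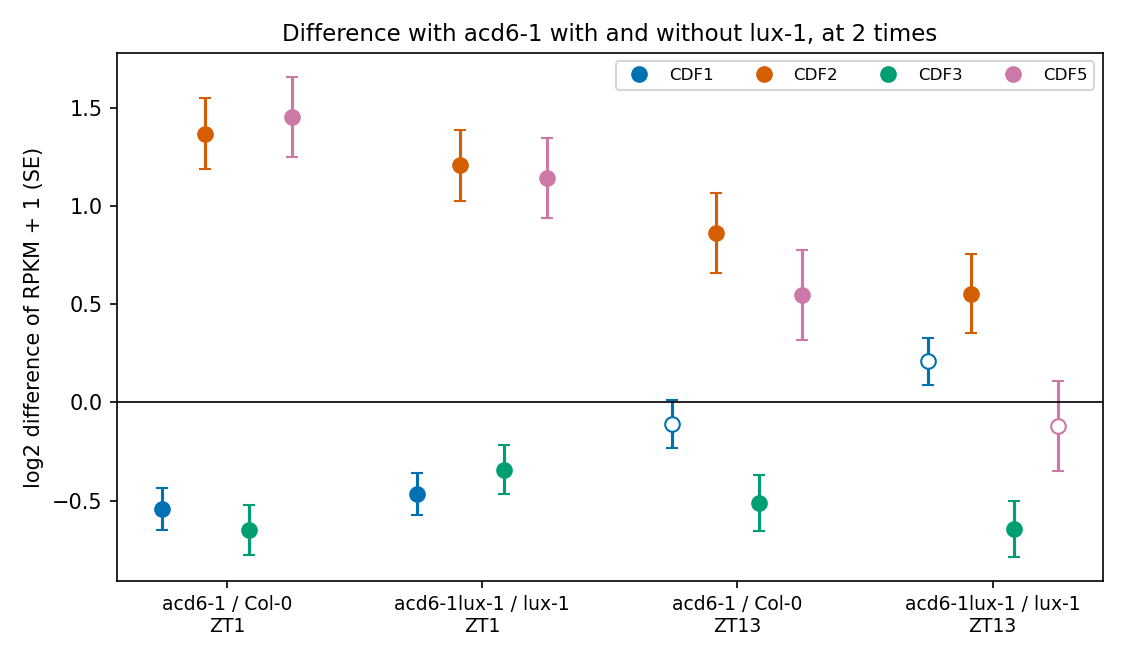
Difference with *acd6-1* in log2(RPKM + 1) for each CDF gene, with wild-type *LUX* or with *lux-1*, at ZT1 and ZT13, with bars for the standard error and filled points for an adjusted p under 0.1. At ZT1 *CDF2* and *CDF5* lie between 1.14 and 1.45 and *CDF1* and *CDF3* lie below 0.

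Summed over the 4 genes, the CDF level at ZT1 spanned a narrow range over the genotypes, while its makeup differed. The sum was 136.0 to 144.5 RPKM in Col-0 at ZT1, 149.5 to 158 RPKM in *lux-1*, 117 to 151 RPKM in *acd6-1* and 137 to 153 RPKM in *acd6-1lux-1*. *CDF3* and *CDF1* made up 47.0% and 40.3% of it in Col-0, and *CDF2* and *CDF5* 7.89% and 4.81%. In *acd6-1* the shares of *CDF2* and *CDF5* were 23.1% and 15.5%. At ZT13 the sum was 11.7 to 13.6 RPKM (Col-0) and 13.3 to 18.1 RPKM (*acd6-1*), against 32.8 to 44.1 RPKM in *lux-1* and 36.9 to 41.8 RPKM in *acd6-1lux-1*. The *CDF2* share at ZT13 was 9.41% in Col-0, 26.0% in *lux-1*, 19.4% in *acd6-1* and 36.2% in *acd6-1lux-1*.

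Among 7 genes for degradation of CDF proteins and light input (*GI*, *FKF1*, *ZTL*, *LKP2*, *COP1*, *SPA1* and *CRY2*), *GI* followed the CDF genes with *lux-1* at ZT13, and *FKF1* did not pass. *GI* was 0.697 to 1.12 RPKM in Col-0 at ZT13 and 5.25 to 9.48 RPKM in *lux-1*, a mean 8.01 times as high (log2 difference 2.09, SE 0.15, adjusted p = 9.1e-08). It also rose with *lux-1* at ZT1 (log2 difference 1.02, adjusted p = 0.0002) and in the *acd6-1* background (1.95 at ZT13 and 0.74 at ZT1). *FKF1*, the F-box partner, was 6.64 to 8.74 RPKM in Col-0 at ZT13 and 7.76 to 13.3 RPKM in *lux-1* (log2 difference 0.27, SE 0.22, adjusted p = 0.67). Of the 7 genes, 2 passed with *lux-1* at ZT13, both higher, against 2.08% of all genes. The median log2 difference was -0.03 for the list and -0.03 for all genes. In *acd6-1* at ZT1 all 7 rose, against 37.2% of all genes, with a median of 0.58 against 0.03 for all genes, *CRY2* having the smallest adjusted p (log2 difference 0.75, adjusted p = 6.4e-08). At ZT13 in *acd6-1* 3 passed, all lower, against 26.5% of all genes.

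Among 6 genes of flowering time, with *CO*, *FT*, *TSF* and *SOC1* among them, the known targets of the CDF repressors were higher or did not pass with *lux-1*. *FT* was 2.92 to 4.23 RPKM in Col-0 at ZT13 and 9.59 to 22.1 RPKM in *lux-1* (log2 difference 1.80, SE 0.27, adjusted p = 0.0007). In *acd6-1lux-1* it was 16.2 to 22.4 RPKM against 1.38 to 3.74 RPKM in *acd6-1* (log2 difference 2.58, SE 0.33, adjusted p = 0.00022, and 0.13 with only these 4 libraries in the model). *CO* was 2.06 to 3.22 RPKM in Col-0 at ZT13 and 3.57 to 3.898 RPKM in *lux-1*, which did not pass (log2 difference 0.35, SE 0.20, adjusted p = 0.47). At ZT1 *CO* was 1.09 to 2.11 RPKM in *lux-1* against 0.592 to 0.772 RPKM in Col-0 (log2 difference 0.54, adjusted p = 0.091, lost under 7 alternatives and without any 1 of 5 of the 6 libraries). In the *acd6-1* background at ZT1 it was 0.146 to 0.439 RPKM in *acd6-1* and 1.04 to 2.42 RPKM in *acd6-1lux-1* (log2 difference 1.13, adjusted p = 0.00058). *SOC1*, a further activator of flowering, rose with *lux-1* in all 4 comparisons (log2 differences 1.24, 0.55, 0.40 and 0.69), and the last call was lost with only the groups compared (adjusted p = 0.13). Of the 6 genes, 3 passed with *lux-1* at ZT13, all higher (median log2 difference 0.45), against 2.08% of all genes. One of them, *TSF*, a homolog of *FT*, lost its call with a pseudocount of 0.1, with only the groups compared and in DESeq2 (adjusted p from 0.15 to 0.16).

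**Figure D5:**
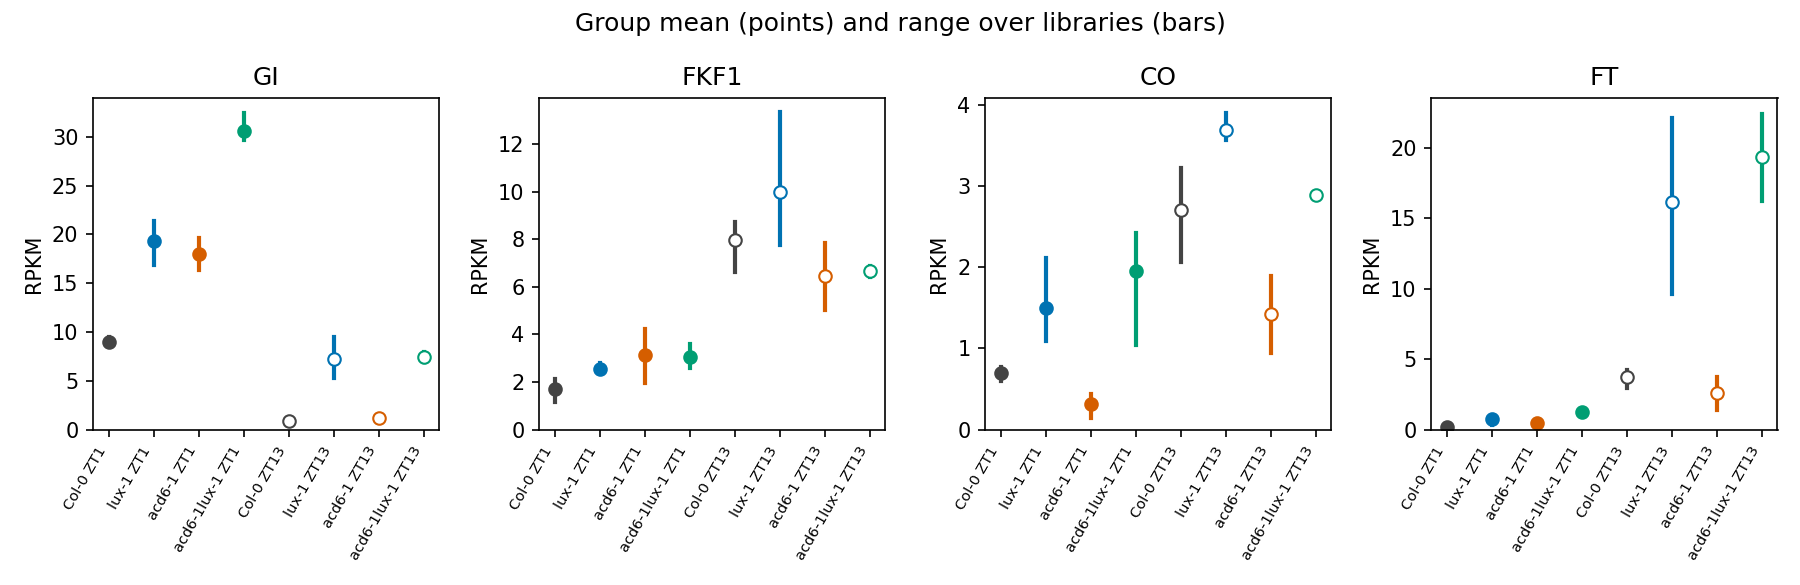
Mean level in RPKM (points, filled at ZT1 and open at ZT13) and the range over the libraries of each group (bars) for *GI*, *FKF1*, *CO* and *FT* on linear axes from 0. At ZT13 *GI* and *FT* are higher in both groups with *lux-1*, whereas *FKF1* overlaps, at means of 9.98 RPKM in *lux-1* against 7.96 RPKM in Col-0.

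The 4 activators of *CO* in the FBH family, which are bHLH proteins, included 1 that passed with *lux-1* at ZT13. This was *FBH3*, which fell (log2 difference -0.48, adjusted p = 0.0072), against 1.85% of all genes lower. It also fell in *acd6-1* at ZT13 (log2 difference -1.14, adjusted p = 2.1e-07), against 26.5% of all genes lower. The 5 *TPL* and *TPR* co-repressor genes all rose in *acd6-1* at ZT1 and at ZT13, against 37.2% and 22.3% of all genes, with medians of 0.35 and 0.28 on the log2 scale against 0.03 and -0.06 for all genes. *TPL* was 93.1 against 57.1 RPKM at ZT1 (log2 difference 0.69, adjusted p = 8.3e-09), and *TPR3* was 20.4 against 10.4 RPKM at ZT13 (log2 difference 0.91, adjusted p = 1.5e-05).

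Of 10 clock regulators, 5 passed with *lux-1* at ZT13, all higher (median log2 difference 0.69), against 2.08% of all genes. The 10 were *CCA1*, *LHY*, *PRR9*, *PRR7*, *PRR5*, *TOC1*, *ELF3*, *ELF4*, *BOA* and the mutated gene *LUX* itself. In the *acd6-1* background at ZT13, 2 were higher and 1 lower (median 0.25), against 1.15% and 0.346% of all genes. *PRR7*, a repressor of the morning loop, rose by 1.79 on the log2 scale in *lux-1* and by 1.45 in *acd6-1lux-1*. *CCA1* and *LHY*, the morning MYB factors, fell from ZT1 to ZT13 in Col-0 as *CDF1* and *CDF3* did, with larger log2 differences. They were at 173 and 181 RPKM at ZT1 and 0.390 and 0.820 RPKM at ZT13 (log2 differences -6.97 and -6.65). With *lux-1* at ZT1 *LHY* fell (log2 difference -0.72, adjusted p = 0.0001). At ZT13 *CCA1* was 0.765 to 2.52 RPKM in *lux-1* against 0.346 to 0.471 RPKM in Col-0 (log2 difference 0.80, adjusted p = 0.03), a call lost without Col-0 ZT13 replicate 3 (adjusted p = 0.11) or *lux-1* ZT13 replicate 2 (adjusted p = 0.12) and with only the groups compared (adjusted p = 0.2).

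Of 32 further Dof loci listed, 29 were in the table and 27 were tested. With *lux-1* at ZT13, 1 of the 27 passed, as higher, against 2.08% of all genes higher and 1.85% lower. The median log2 difference of the 27 was 0.03. The listed loci are Dof loci other than *CDF1*, *CDF2*, *CDF3* and *CDF5*. They may include further CDF genes, AT2G34140 and AT1G26790 among the candidates, so they do not serve as a contrast to the CDF group. The gene that rose was AT1G51700 (*DOF1* in RefSeq), at 63.0 to 76.2 RPKM in *lux-1* against 37.5 to 59.0 RPKM in Col-0 (log2 difference 0.52, adjusted p = 0.048), a call lost without each of 3 libraries, Col-0 replicate 1 and *lux-1* replicates 2 and 3 (adjusted p from 0.14 to 0.22). At ZT1 it fell with *lux-1* (log2 difference -0.76, adjusted p = 0.0012). AT1G26790, with 2.63 to 3.31 RPKM in Col-0 at ZT1, was at 0.410 to 0.771 RPKM in *lux-1* and 0.344 to 0.569 RPKM in *acd6-1* (log2 differences -1.31 and -1.47, adjusted p = 1.5e-07 and 2.8e-09), and was listed at 0 in all Col-0 libraries at ZT13. In *acd6-1* 6 of the 27 rose and 9 fell at ZT1, against 37.2% and 31.0% of all genes, and 1 rose and 8 fell at ZT13, against 22.3% and 26.5%.

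Over the 22 libraries, *CDF1* and *CDF3* had the most similar profiles among the members, with a Pearson correlation of log2(RPKM + 1) of 0.96, followed by *CDF2* and *CDF5* at 0.86. The other 4 pairs had correlations between 0.49 and 0.68. The libraries share their groups and the strong contrast of the 2 times, so these correlations describe the profiles and were not tested. Among all genes tested, the 3 most like *CDF1* were *STH* (AT2G31380, a B-box protein), *LHCB2.2* (AT2G05070, a light-harvesting protein) and AT1G55960, all at 0.99. Those most like *CDF3* were *LHCB2.1* (AT2G05100), AT5G15950 and *STH*, also at 0.99. Those most like *CDF2* were *NF-YA1* (AT5G12840, a subunit of the NF-Y factor) at 0.91 and *RR12* (AT2G25180, a response regulator of cytokinin signaling) at 0.88. Those most like *CDF5* were *RUG1* (AT5G08710) at 0.94, *CYP707A4* (AT3G19270, an enzyme of abscisic acid breakdown) at 0.93 and AT1G06050 at 0.92.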

How the data were processed

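RNA-seq libraries from 22 samples in 8 groups of genotype and time were analysed. The authors made TruSeq libraries, sequenced single reads on an Illumina HiSeq and deposited 1 RPKM value per transcript and library, together with total read counts and mapped reads per library. CASAVA and TAIR10 appear in the submitters' notes with no version. For the aligner, the counting program and its use of strand nothing is stated in those sources. Mapped reads per library ranged from 10306552 to 16224975.

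Groups follow the sample titles. RPKM values are not counts, so log2(RPKM + 1) was fitted with limma 3.58.1 (R 4.3.3) with a trend in the prior variance, as 8 group means over all 22 libraries, for the 21666 transcripts with a mean above 0.3 RPKM in at least 1 group. The 12 comparisons and 5 differences between effects were adjusted by Benjamini-Hochberg over all transcripts, with a threshold of 0.1. The 0.3 RPKM cutoff and log2(RPKM + 1) were taken from the expression profiling of the study, and its test for single genes needs counts. Applying the cutoff to group means was a choice made here. Transcript lengths were not an input. Each was searched for as a length that turned the values of a transcript into read numbers within 0.001 of whole ones. That 100% of values above 0 came out whole is therefore the criterion of the search and no check of the reads. The recovered reads served the alternatives with edgeR 4.0.16, limma voom and DESeq2 1.42.0. Of the recovered lengths 97.39% were multiples of 3, so they are coding lengths. Symbols came from RefSeq, in which 24867 of the 25218 identifiers were found. Further alternatives were pseudocounts of 0.1 and 0.5, filters of none and 1 RPKM, median-of-ratios and quantile scaling, no trend, only the groups compared, a threshold of 0.05, replicate numbers as a block and each library left out. The limma script was tested on simulated data.

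The 4 genes and the gene lists were chosen with earlier results of these data known. Named in the text are the 4 genes, *LUX*, *ACD6*, *GI*, *FKF1*, *CO*, *FT*, *CCA1*, *LHY*, up to 2 further members of a list with the smallest adjusted p in a comparison described, and the 3 transcripts most correlated with each gene, of which 1 for *CDF2* is not reported here. In the table, 1 column belonged to no sample and was not used. The overlap of *CDF5* with its neighbor was read from RefSeq (TAIR10.1), and no sequences or coordinates are printed.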

Additional observations from a re-analysis of the deposited data

Results flagged for a closer look

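Differences between 2 effects that passed their own test are given here as values. The difference between *lux-1* and Col-0 was larger at ZT13 than at ZT1 by 2.75 on the log2 scale for *CDF2*, 1.11 for *CDF1* and 0.96 for *CDF3*. In the *acd6-1* background the same change was 2.61 for *CDF2* and 1.35 for *CDF1*. The difference between *acd6-1* and Col-0 changed from ZT1 to ZT13 by 0.43 for *CDF1* and by -0.91 for *CDF5*. Each of these last calls was lost under some of the alternatives given above.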

How the results depend on the processing

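The 4 CDF genes gave 68 results over 12 comparisons and 5 differences between effects, of which 46 passed the test. All 46 kept their direction under every alternative run, and 35 also stayed past the test under every one. The cause of a lost or gained call was not tested unless the alternative itself removed libraries.

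The larger moves in counts of CDF genes past the test were these. With only the groups compared, 0 instead of 3 passed between *acd6-1lux-1* and *acd6-1* at ZT13 and 1 instead of 2 between *acd6-1lux-1* and *lux-1* at ZT13, in models of fewer libraries. At ZT1 the same setting gave 2 instead of 3 between *acd6-1lux-1* and *acd6-1* and 4 instead of 3 between *lux-1* and Col-0. In voom, 1 instead of 3 passed between *acd6-1* and Col-0 at ZT13. For the change of the *acd6-1* difference from ZT1 to ZT13, 1 instead of 2 passed under 4 settings. *CDF5* was lost after quantile normalization, in edgeR and in voom, and *CDF1* at a threshold of 0.05. With each library left out, the counts ranged from 1 to 2 for *acd6-1lux-1* against *lux-1* at ZT13, from 0 to 1 for the change of the *lux-1* difference between backgrounds at ZT1, and from 1 to 3 for the change of the *acd6-1* difference between times.

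Signs turned only for results that did not pass. For the change of the *acd6-1* difference from ZT1 to ZT13, *CDF2* had log2 values of 0.16 in edgeR, 0.10 in voom and 0.075 in DESeq2, and *CDF3* had -0.21 and -0.0080 with pseudocounts of 0.1 and 0.5, -0.10 in edgeR, -0.060 in voom and -0.19 in DESeq2. For the change of the *lux-1* difference between backgrounds at ZT13, *CDF3* had 0.11 with a pseudocount of 0.1 and 0.10 in each of edgeR, voom and DESeq2. *CDF5* in *acd6-1lux-1* against *acd6-1* at ZT1 had -0.033 after median-of-ratios scaling and -0.033 in voom. *CDF5* at ZT13 against ZT1 in *lux-1* had -0.033 after median-of-ratios scaling, -0.086 after quantile normalization, -0.046 in edgeR, -0.084 in voom and -0.0089 in DESeq2. With each library left out, log2 differences ranged from -0.22 to 0.0046 for *CDF1* in *acd6-1* against Col-0 at ZT13, from -0.71 to 0.095 for *CDF2* between backgrounds at ZT13, from -0.032 to 0.35 for *CDF5* in *acd6-1lux-1* against *acd6-1* at ZT1, from -0.28 to 0.044 for *CDF5* in *acd6-1lux-1* against *lux-1* at ZT13 and from -0.060 to 0.26 for *CDF5* between times in *lux-1*.

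Counts over all genes moved more. Between *acd6-1lux-1* and *acd6-1* at ZT13, 250 were higher and 75 lower, against 48 and 20 with only the groups compared and 165 higher in edgeR. With each library left out, 147 to 230 were higher and 19 to 188 lower, the lowest without *acd6-1lux-1* replicate 1 (19 lower) and the highest without *acd6-1* replicate 2 (188 lower). Between *lux-1* and Col-0 at ZT13, 451 were higher and 401 lower, and 263 were lower in edgeR. With each library left out, 288 to 551 were higher and 161 to 356 lower, with 288 and 161 without Col-0 replicate 3, 295 and 191 without Col-0 replicate 1 and 361 and 256 without *lux-1* replicate 3. In Col-0, 9873 were higher and 3127 lower at ZT13 than at ZT1, against 5597 and 6049 in edgeR.

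Deviations of same-numbered replicates from their group means correlated at -0.224 to 0.283, and in no comparison with 3 pairs above 0.1 for each pair. At ZT1 the 3 pairs were all positive for *acd6-1* against Col-0 (0.209, 0.204 and 0.096). They were also all positive for *acd6-1lux-1* against *acd6-1* (0.034, 0.179 and 0.098). The numbers were not taken to pair the samples, a choice that these correlations do not settle. With the replicate number as a block, 4 of 4 CDF genes still passed between *lux-1* and Col-0 at ZT13 and 3 of 4 between *acd6-1lux-1* and *acd6-1*, and no count of CDF genes past the test changed. At ZT13 the 2 pairs of the latter comparison correlated at -0.124. This is 1 value, since the 2 libraries of each group mirror each other about their mean. Crossed numbers, tried after seeing the data, also left 3. The lowest read numbers of *CDF3* were 16 and 17, in *acd6-1* at ZT13.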
